A study of Homo sapiens with 6 samples.

Results

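Replication origin sites were examined that appeared in both siORCA samples, in neither control sample, and at a distance from every site shared by all samples. Peaks of the 4 deposited lists on chromosomes 1 to 22 and X were pooled, and peaks that touched or overlapped were merged into regions. A region with peaks in all 4 lists is called constant here. A region with peaks in both siORCA lists and in no control list is called siORCA-only. It is called far where its nearest edge lay 20 kb or more from any constant region. This rule found 10682 far siORCA-only regions among 534833 merged regions, which also held 57116 constant regions and 18424 siORCA-only regions nearer than 20 kb. Presence in the lists chose these regions, so their absence from the control lists is part of the definition and carries no test.

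The samples were nascent-strand sequencing (NS-seq) libraries of U2OS, a line grown from a human osteosarcoma. The assay selects short newly made DNA strands, so that its peaks mark places where replication has just begun. Cells received an siRNA against ORCA in 2 samples (siORCA 1 and siORCA 2) or a control siRNA named gl3 in 2 samples (control 1 and control 2), and 2 genomic DNA samples were not analysed here. The labels leave it unsaid if a group's samples were grown apart, so their spread may be technical. The level of ORCA cannot be read from a DNA assay.

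ORCA, also called LRWD1, is a WD-repeat protein that binds the origin recognition complex, the complex that marks origins and helps to load the replicative helicase. ORCA is concentrated at heterochromatin and binds repressive histone marks. In human cells many more origins are licensed than are used in one cell cycle. Efficient origins cluster in gene-rich, early-replicating chromatin, and late-replicating, gene-poor chromatin holds fewer and more scattered ones.

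The lists held 329933 peaks in siORCA 1, 198486 in siORCA 2, 181132 in control 1 and 235444 in control 2 on these chromosomes. Their median width ran from 167 to 216 bp. The lists hold no read counts, so depth is unknown, and a longer list can hold more regions of any kind. Peaks in far regions of any presence pattern made up 35.9% of the siORCA 1 list, 25.9% of siORCA 2, 29.3% of control 1 and 35.7% of control 2. By this share siORCA 1 was close to control 2, and siORCA 2 was the lowest of the 4. Of the peaks outside constant regions, 44.6% were far in siORCA 1, 37.4% in siORCA 2, 44.0% in control 1 and 48.5% in control 2. By that measure siORCA 1 was closest to control 1, and siORCA 2 was again the lowest.

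The far siORCA-only regions were 36.7% of all 29106 siORCA-only regions (Wilson 95% interval 36.1% to 37.3%, counting error only). They were 4.68% of the 228370 merged regions of any kind that lay far from constant regions. Over all merged regions, siORCA-only regions of any distance were 5.44%. Regions held by both control lists and no siORCA list numbered 4259 among the far regions, or 1.86% of them. The ratio of far siORCA-only to far control-only regions was 2.51. It was 1.36 with the weakest peaks removed until all lists covered the same length. When peaks below a −log10 q of 3 were dropped, it was 11.3. That cut kept 64.6% of siORCA 1 peaks and 56.8% of siORCA 2 peaks, but 35.9% of control 1 and 41.6% of control 2 peaks. It thus removed a larger part of the control lists, and the effect of this on the ratio was not tested.

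Pairs that cross the groups had far regions of their own. Regions held by siORCA 1 and control 2 alone numbered 10279 when far, nearly as many as the far siORCA-only regions. Far regions numbered 6582 for siORCA 1 with control 1, 3987 for siORCA 2 with control 1 and 4312 for siORCA 2 with control 2. The 3 pairs with siORCA 1, the longest list, thus had more far regions than the 3 pairs without it. The share that was far ran from 39.9% to 44.6% in the crossed pairs and was 47.6% in the control pair. The 36.7% of the siORCA pair was the lowest of the 6. Among the lists themselves siORCA 2 had the smallest share of far peaks, and its part in this order was not tested. After the lists were cut to 1 covered length, the siORCA pair had 7431 far regions, the largest crossed pair 6488 and the control pair 5444, and the siORCA share of 41.7% stood beside 41.8% in the lowest other pair. The number of far siORCA-only regions fell below the largest crossed pair when peaks were merged across gaps of 1 kb, with 8813 against 11521, and also at 50 kb, with 6026 against 6355, and where regions in at least 3 lists counted as constant, with 5629 against 5896. Without siORCA 1 the number was 24780, and without siORCA 2 it was 79231, since the regions of a single list then count.

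**Figure D1:**
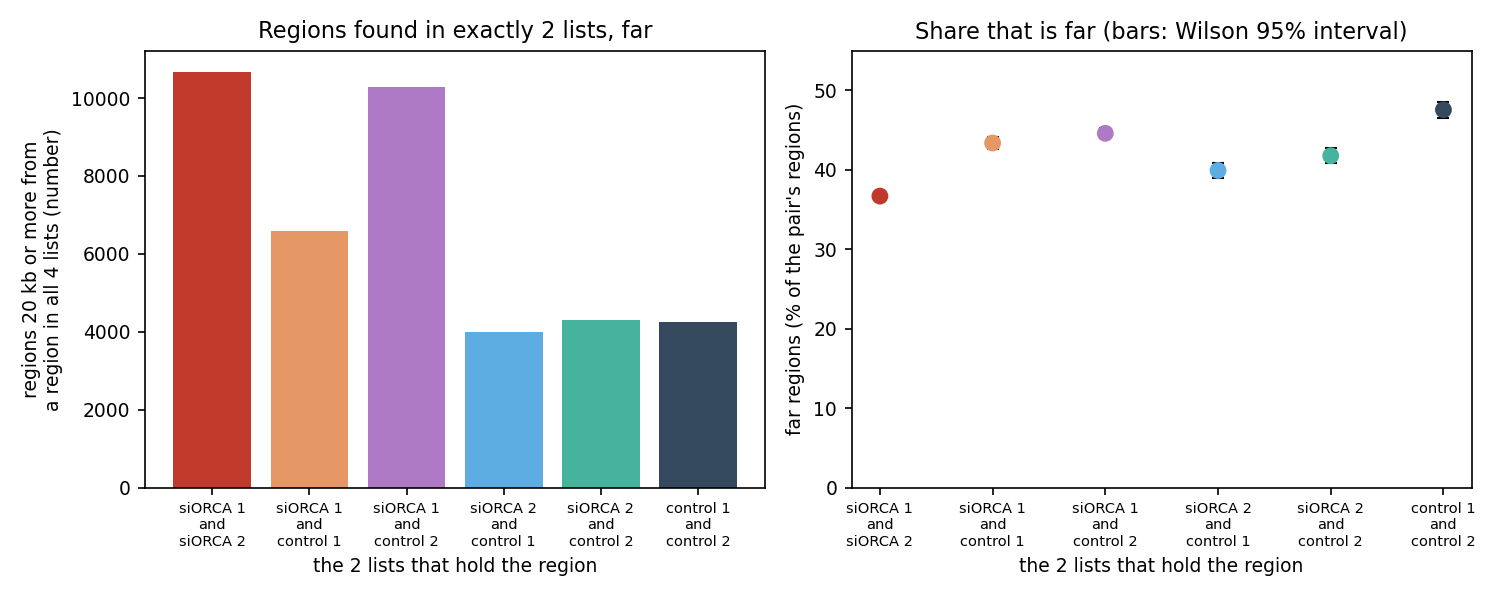
Number of far regions (left) and far regions as a percent of the pair's regions (right, points with Wilson 95% intervals) for regions found in exactly 2 lists, by the pair of lists that holds them. The siORCA pair has 10682 far regions, close to the 10279 of siORCA 1 with control 2, and its share of 36.7% is the lowest of the 6 pairs.

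The density of siORCA-only regions fell steadily with distance from constant regions. Per Mb of sequence, 27.5 lay within 1 kb of a constant region, 25.1 from 1 to 5 kb and 15.4 from 5 to 20 kb. Among the far regions, the density was 9.22 per Mb from 20 to 50 kb, 6.52 from 50 to 100 kb, 4.56 from 100 to 200 kb and 1.94 beyond 200 kb. All 6 pairs showed this decline, but in the lists as deposited it was steepest for the siORCA pair. Sequence nearer than 20 kb held 3.84 times as many siORCA-only regions per Mb as sequence farther away. For the crossed pairs that ratio was between 2.77 and 3.35, and for the control pair it was 2.45. Far sequence takes in long stretches without far siORCA-only regions, such as a gap of 27.9 Mb between constant regions on chromosome 9.

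In the lists as deposited, siORCA-only regions exceeded those of siORCA 1 with control 2 and control-only regions by more near constant regions than far from them. Within 1 kb there were 1.57 siORCA-only regions for each region of siORCA 1 with control 2, and 4.37 for each control-only region. From 20 to 50 kb these ratios were 1.19 and 2.93. Beyond 200 kb they were 0.736 and 1.80, from 1456 siORCA-only regions, 1977 of siORCA 1 with control 2, and 808 control-only regions. After the lists were cut to 1 covered length, the ratio to control-only regions was 1.96 within 1 kb and 1.06 beyond 200 kb. Above the −log10 q of 3, which kept a smaller share of control peaks, it was 18.1 and 8.66. Against control-only regions the ratio was thus lower beyond 200 kb than within 1 kb in these 3 settings, by different amounts. Against the largest crossed pair in each range of distance it was also lower beyond 200 kb in these 3 settings. The fall with distance was not steady in all of them. With the lists cut to 1 covered length, that ratio was 1.16 within 1 kb, 1.11 from 1 to 5 kb, 1.18 from 5 to 20 kb and 1.08 from 20 to 50 kb. It was 1.21 from 50 to 100 kb, 1.22 from 100 to 200 kb and 0.987 beyond 200 kb, with no decline out to 200 kb. In the same cut lists, the ratio to siORCA 1 with control 2 fell from 1.92 within 1 kb to 1.33 from 100 to 200 kb. Beyond 200 kb that ratio was 0.987.

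**Figure D2:**
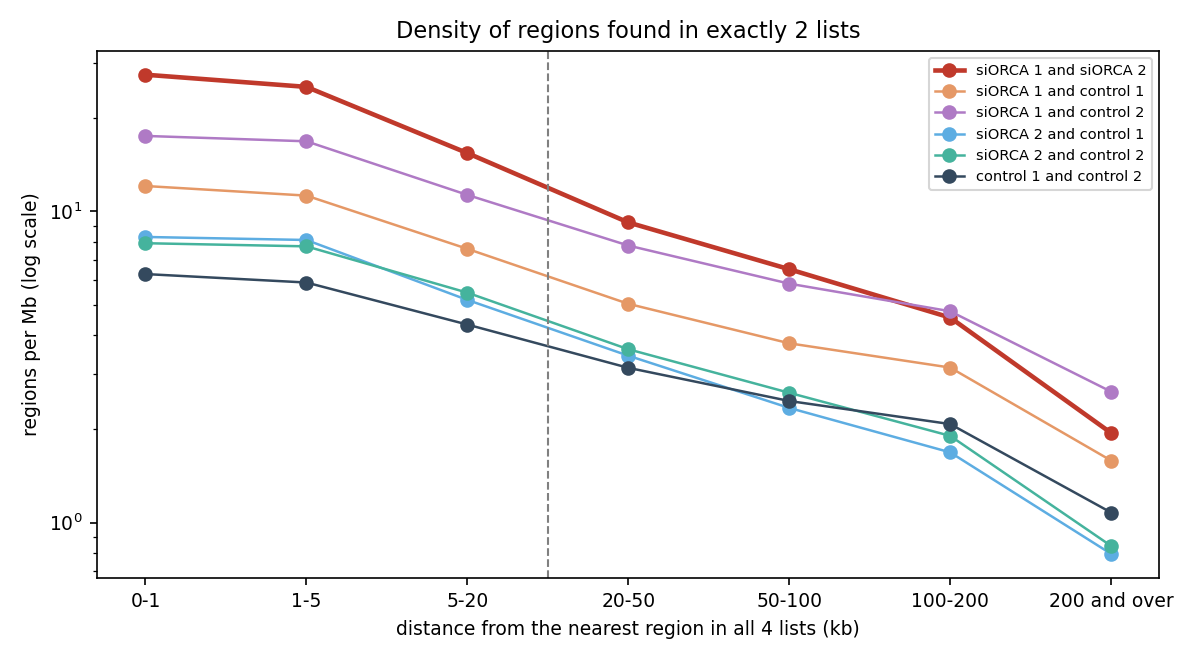
Regions per Mb (log scale) against distance from the nearest constant region in kb, for regions found in exactly 2 lists, 1 line per pair of lists; the dashed line marks 20 kb. The siORCA pair is highest near constant regions at 27.5 per Mb and falls to 1.94 per Mb beyond 200 kb, where siORCA 1 with control 2 is higher at 2.63.

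Of the far siORCA-only regions, 43.6% lay from 20 to 50 kb from a constant region and 25.8% from 50 to 100 kb. A further 17.0% lay from 100 to 200 kb and 13.6% beyond 200 kb. The median distance was 58.7 kb, with quartiles of 33.3 and 123 kb, and 112 regions lay 1 Mb or more away. Just inside the 20 kb threshold were regions on chromosome 12 from 48863999 to 48864113, at 20003 bp, and on chromosome X from 128106930 to 128107503, at 20005 bp (T2T-CHM13, here and below). Just outside were siORCA-only regions on chromosome 16 from 26880732 to 26881040, at 19996 bp, and on chromosome 15 from 56315575 to 56316065, at 19995 bp. The fold enrichment of these 4 regions was 3.74, 4.71, 4.84 and 3.22 in siORCA 1, and 4.28, 3.73, 4.77 and 3.91 in siORCA 2, in the order named. Values on either side of the threshold overlapped.

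The share of siORCA-only regions that was far varied by chromosome with how densely constant regions are spaced, which the distance rule itself uses. It was lowest on chromosomes 22 (11.5%), 19 (13.4%) and 17 (18.7%), known for their high gene density. It was highest on chromosomes 4 (65.2%), X (59.7%) and 13 (54.1%), of which 4 and 13 are known as gene-poor. Chromosome 22 had 54.8 constant regions per Mb and chromosome X 2.99. Sequence 20 kb or more from constant regions made up 69.0% of the span of these chromosomes, from 37.2% on chromosome 19 to 93.1% on chromosome X.

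Counted per Mb of far sequence, the order changed. Far siORCA-only regions were densest on chromosome 20 with 8.52 per Mb, chromosome 17 with 8.02, chromosome 10 with 7.35 and chromosome 2 with 7.04. They were sparsest on chromosome X with 1.59, chromosome 13 with 2.25 and chromosome 4 with 3.43. Far sequence takes in long gaps between constant regions that held 0 far siORCA-only regions. Such gaps spanned 27.9 Mb on chromosome 9, 6.01 Mb on chromosome 4 and 5.34 Mb on chromosome 13. They were not limited to sparse chromosomes. Others spanned 9.05 Mb on chromosome 15, 5.26 Mb on chromosome 1, 3.44 Mb on chromosome 20 and 2.57 Mb on chromosome 8. Densities on those chromosomes were 5.53, 5.62, 8.52 and 6.37 per Mb, in the order named. The widest gap on chromosome X held 13 far siORCA-only regions. The part of the empty gaps in these densities was not tested. In siORCA 1 with control 2, chromosomes 20 and 17 were also the densest, with 9.04 and 6.90 per Mb. Chromosome 2 was not among the densest there, with 4.87 against 4.95 over all far sequence. Chromosomes X, 13 and 4 were again the sparsest, with 2.204, 4.07 and 4.16, but chromosome 9 was close at 4.35. The siORCA pair had 5.15 per Mb over all far sequence. For the siORCA pair, chromosomes X, 13 and 4 thus had the largest shares of far sequence and the fewest far siORCA-only regions in each Mb of it. Across the 23 chromosomes this density rose with the density of constant regions (Spearman's rho 0.60, a description over chromosomes that share the same lists).

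By number, chromosome 2 held the most, 1109 regions or 10.4%, followed by chromosome 1 with 868 and chromosome 3 with 860. Chromosome 22 held the fewest, 104. On chromosomes 7 and 10 the share of far siORCA-only regions was above that of all other 5 pairs. On chromosome 10 it was 5.62%, against 4.56% to 5.45% in crossed pairs and 4.02% in the control pair. On chromosome 7 it was 5.823%, against at most 5.819% in the others, a gap too small to read. On chromosomes 4, 11 and 13 it was below all other 5 pairs. On each of the 23 chromosomes some pair of the 6 must be highest and some pair lowest. Being highest on 2 and lowest on 3 is therefore not read as a trait of these regions. Chromosome 4 held 5.24% of far siORCA-only regions, against 5.77% to 6.62% in crossed pairs and 6.97% in the control pair.

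The shares separated by the presence of siORCA 2 more often than by that of any other list. On 9 of 23 chromosomes, the 3 pairs that include siORCA 2 had shares that did not overlap those of the 3 pairs without it. The same count was 1 for siORCA 1, 2 for control 1 and 2 for control 2. Pairs with siORCA 2 had larger shares on chromosomes 2, 3, 5 and 10 and smaller shares on chromosomes 6, 9, 13, 18 and X. On chromosome 13, far siORCA-only regions had a share of 2.04% and the crossed pairs with siORCA 2 had 2.13% each, against 3.36% to 3.84% in pairs without siORCA 2. The same tilt was present in the whole lists, where chromosome 13 held 1.98% of siORCA 1 peaks, 1.28% of siORCA 2 peaks, 1.67% of control 1 peaks and 2.09% of control 2 peaks. Its part in the chromosome shares above was not tested.

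**Figure D3:**
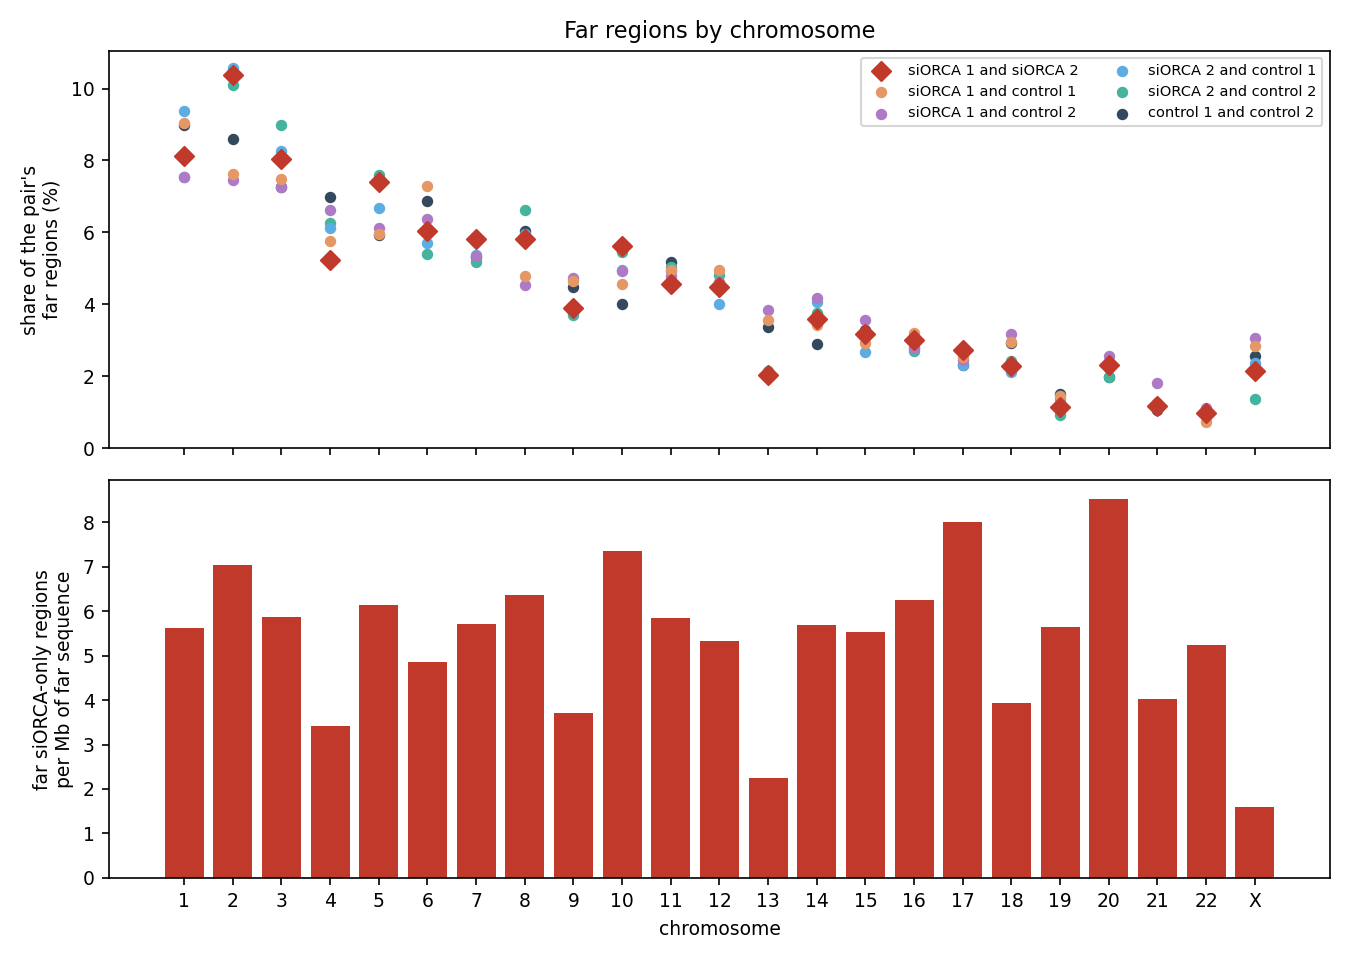
Top, share of each pair's far regions (%) by chromosome, with the siORCA pair as diamonds; bottom, far siORCA-only regions per Mb of sequence 20 kb or more from a constant region. The siORCA pair holds 10.4% of its far regions on chromosome 2 and 2.04% on chromosome 13, and its density runs from 1.59 on X to 8.52 on chromosome 20.

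Far siORCA-only regions were narrow. Their median width was 227 bp, with quartiles of 168 and 362 bp and a range of 103 to 1655 bp. Only 12.7% were wider than 500 bp and 63 were wider than 1 kb. Constant regions had a median width of 669 bp, and a merged region widens with each list that adds a peak. The median width of siORCA-only regions nearer than 20 kb was 276 bp. In each of the 6 pairs the far regions had a smaller median width than the near ones. Far regions of the crossed pairs had median widths of 252 to 265 bp, and those of the control pair 283 bp, so the siORCA pair had the narrowest. The siORCA peaks themselves were not the narrowest there. siORCA 1 peaks had a median of 161 bp, against 154 and 151 bp in pairs with control 1 and control 2. siORCA 2 peaks had 157 bp, against 164 and 154.5 bp. Control peaks in the crossed pairs had medians of 173 to 184 bp. Above a −log10 q of 3, only 3 of the other 5 pairs had wider medians than the siORCA pair, and 4 of 5 did where a list had to cover 50% of a region.

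In 99.5% of far siORCA-only regions each siORCA list had 1 peak. By list, siORCA 1 covered a median of 161 bp and siORCA 2 a median of 157 bp. siORCA 1 covered more of the region in 5418 cases, siORCA 2 in 5204, and 60 were equal. The peaks of both lists shared a median of 55.6% of the region's width. In the crossed pairs this was 44.9% to 54.01%, and in the control pair it was 44.4%. Together the far siORCA-only regions covered 3.12 Mb, or 2.68% of the covered length of the siORCA 1 list and 3.51% of that of siORCA 2. They grew narrower with distance, with a median of 238 bp from 20 to 50 kb, 223 bp from 50 to 100 kb, 221 bp from 100 to 200 kb and 209 bp beyond 200 kb.

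The authors' fold enrichment, a linear ratio of a peak's signal over the caller's background, can be ranked only within a list. In far siORCA-only regions its median was 4.68 in siORCA 1 and 4.01 in siORCA 2. These medians stood at percentile 53.9 of the siORCA 1 list and at percentile 42.04 of the siORCA 2 list. The regions thus held ordinary peaks of siORCA 1 and somewhat weak peaks of siORCA 2. From the 5th to the 95th percentile of these peaks, fold enrichment ran from 3.26 to 11.7 in siORCA 1 and from 3.25 to 6.04 in siORCA 2. Peaks of constant regions stood higher, with a median at percentile 76.3 in siORCA 1 and 75.4 in siORCA 2. Far peaks found in that list alone stood lower, at percentile 35.9 in siORCA 1 and 27.6 in siORCA 2.

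Peak strength differed little with distance from constant regions, and within the far regions it rose slightly in both siORCA lists. Near siORCA-only regions had medians of 4.71 in siORCA 1 and 3.96 in siORCA 2, against 4.68 and 4.01 in far ones. From 20 to 50 kb the medians were 4.62 in siORCA 1 and 3.98 in siORCA 2, and beyond 200 kb they were 4.76 and 4.11. In the siORCA lists, far regions of crossed pairs had medians of 4.39 and 4.28 where siORCA 1 was paired with control 1 and control 2. Where siORCA 2 was paired with them, the medians were 3.97 and 3.87.

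A −log10 q of at least 3 was reached in both siORCA lists by 3899 far siORCA-only regions, or 36.5%. It was reached in siORCA 1 alone by 3581, in siORCA 2 alone by 1197, and in neither by 2005. Both peaks ranked in the upper 50% of their own list in 26.7% of regions. Both ranked in the upper 10% in only 81 regions, or 0.758%. Across the regions, fold enrichment in siORCA 1 and siORCA 2 had a Spearman's rho of 0.27 over 10682 regions, against 0.53 over the 57116 constant regions. These values describe sites of the same libraries, and their range is limited by the caller's threshold.

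**Figure D4:**
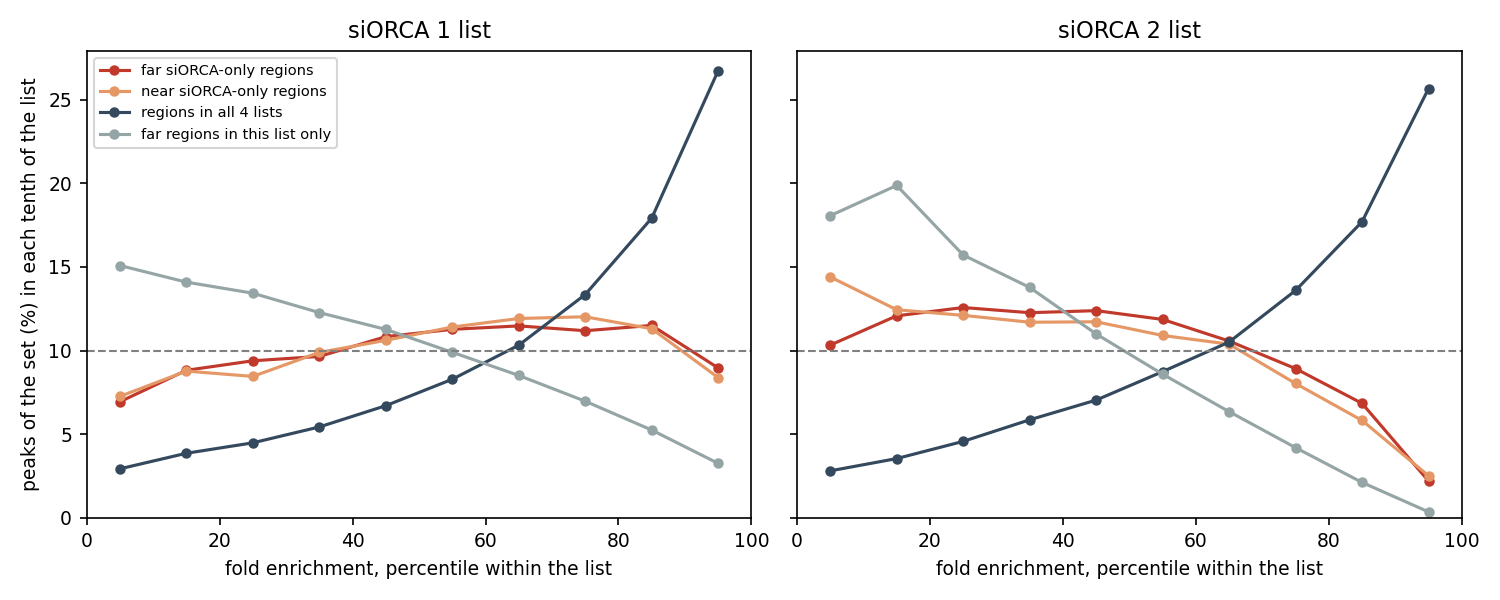
Percent of a set's peaks that fall in each step of 10 percentiles of the siORCA 1 list (left) and of the siORCA 2 list (right), ranked by fold enrichment; the dashed line at 10% is the whole list. Far and near siORCA-only regions follow each other closely, while constant regions are concentrated at the highest percentiles and far regions of that list alone at the lowest.

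The region with the highest fold enrichment in its weaker list lay on chromosome 3 from 58373772 to 58374281. It had 15.3-fold in siORCA 1 and 21.99-fold in siORCA 2, whose peaks spanned 510 and 245 bp of it. The next lay on chromosome 4 from 190190512 to 190190653, with 14.7-fold in siORCA 1 and 13.6-fold in siORCA 2 over 142 and 124 bp. The third lay on chromosome 1 from 5214328 to 5214609, with 21.1-fold in siORCA 1 and 13.2-fold in siORCA 2. All 3 ranked above percentile 96 in siORCA 1 and above percentile 98 in siORCA 2. A control peak nevertheless lay close to each, at 1.11, 3.55 and 1.34 kb in the order named.

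In the 3 widest far siORCA-only regions, siORCA 1 covered more than siORCA 2. On chromosome 1, between 243783172 and 243784826, the siORCA 1 peaks spanned 1655 bp and the siORCA 2 peaks 460 bp. On chromosome 17, between 36890603 and 36892207, they spanned 1583 bp in siORCA 1 and 109 bp in siORCA 2, with a control peak 0.207 kb away. On chromosome 12, between 123229340 and 123230837, siORCA 1 spanned 1479 bp and siORCA 2 spanned 165 bp. The next widest, chosen after its values were seen, had the opposite order, with 681 bp in siORCA 1 and 1493 bp in siORCA 2 on chromosome 2 between 11897636 and 11899131. Of the 63 regions wider than 1 kb, siORCA 1 covered more in 43 and siORCA 2 in 20. The fold enrichment of the 3 widest was moderate, from 4.38 to 5.56 in siORCA 1 and from 3.61 to 4.83 in siORCA 2.

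The 3 regions farthest from any constant region lay on chromosome X, inside a gap of 18.9 Mb between neighbouring constant regions. The farthest, from 29629194 to 29629457, was 8.06 Mb from the nearest constant region and had 6.67-fold in siORCA 1 and 5.98-fold in siORCA 2. The others ran from 30491607 to 30491777 and from 25851157 to 25851379. This gap held 13 far siORCA-only regions, with fold enrichment from 4.41 to 24.1 in siORCA 1 and from 3.57 to 6.72 in siORCA 2. It was not empty in the control lists. It held 385 peaks of siORCA 1, 50 of siORCA 2, 94 of control 1 and 272 of control 2.

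Far from constant regions did not mean far from control peaks. The median distance from a far siORCA-only region to the nearest peak of either control list was 3.64 kb. A control peak lay within 1 kb of 17.2% of the regions, within 5 kb of 59.5% and within 20 kb of 93.9%. No control peak lay within 20 kb of 653 regions, or 6.11%. For far regions of crossed pairs, the share with no peak of the remaining lists within 20 kb ran from 2.93% to 14.99%, and for control-only regions it was 5.24%. The lists left out differ between pairs in their number of peaks.

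Other peaks were denser around far siORCA-only regions than in far sequence as a whole, in control lists too. Within 20 kb of these regions, and apart from them, siORCA 1 had 84.5 peaks per Mb, siORCA 2 had 40.0, control 1 had 41.6 and control 2 had 61.3. Over all far sequence these densities were 57.0, 24.8, 25.6 and 40.5 per Mb in the same order. The flanks can reach sequence nearer than 20 kb to a constant region, which far sequence leaves out. The part of this in the difference was not tested. Flanks of far control-only regions, counted in the same way, held 87.3, 40.2, 37.5 and 58.2 peaks per Mb. A region found in 3 lists lay within 20 kb of 47.3% of far siORCA-only regions, and another region found in exactly 2 lists within 20 kb of 59.2%, in each case any region other than the far siORCA-only ones.

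Far siORCA-only regions were spread widely, with local groups. The median gap to the nearest other one was 58.1 kb. Another one lay within 20 kb of 27.6% of them and within 100 kb of 64.5%. For siORCA 1 with control 2, a set of similar number, these were 69.7 kb, 24.7% and 60.7%. Of 3023 windows of 1 Mb, 426 held none, and 104 held 10 or more. With siORCA 1 and control 2, 355 windows held none and 74 held 10 or more. These measures depend on how many regions a set has. The variance of the count over windows was 2.24 times its mean for far siORCA-only regions, 2.35 for siORCA 1 with control 2 and 1.44 for the control pair. The value of siORCA 1 with control 2 rests on 1 window on chromosome 14 with 68 of its regions. Without the fullest window of each set, left out after seeing the data, the values were 2.22, 1.95 and 1.42, so the order of the siORCA pair and this crossed pair turned.

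**Figure D5:**
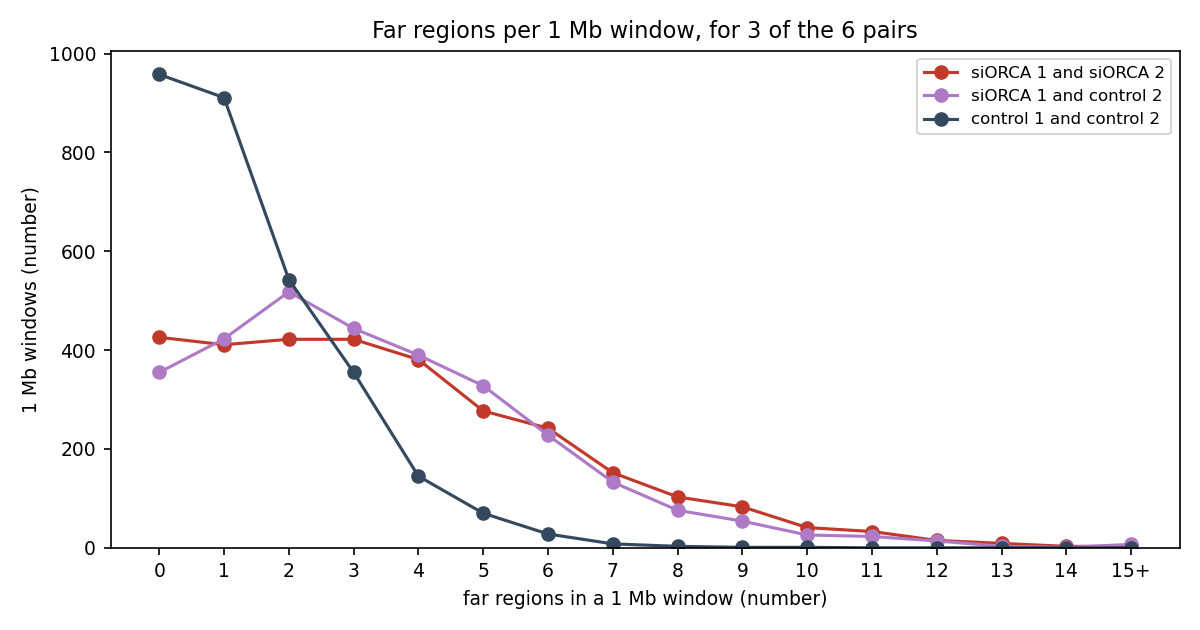
Number of 1 Mb windows by how many far regions they hold, for the siORCA pair, siORCA 1 with control 2, and the control pair. The siORCA pair and the crossed pair of similar size overlap over most of the range, with 426 and 355 windows at 0, and the smaller control pair has 958.

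Joined across gaps of at most 20 kb, the far siORCA-only regions formed 9042 groups, of which 7733 were single regions, 1058 held 2 and 251 held 3 or more. In siORCA 1 with control 2, 170 groups held 3 or more, and in the control pair 16. The group with most regions on the shortest span lay on chromosome 7 from 38457223 to 38488368, with 7 regions in 31.1 kb. Their fold enrichment ran from 3.15 to 12.9 in siORCA 1 and from 3.14 to 5.18 in siORCA 2. That span held 11 peaks of siORCA 1, 9 of siORCA 2, 2 of control 1 and 6 of control 2. A group of 7 on chromosome 17 from 73586123 to 73640421 had 18 and 13 siORCA peaks, against 4 and 5 control peaks. A group of 6 on chromosome 3 from 59298152 to 59324379 had 8 and 8 siORCA peaks, against 3 and 2 control peaks. By covered length that span was less uneven, with 1.57 kb in siORCA 1 and 1.79 kb in siORCA 2, against 1.47 kb in control 1 and 0.395 kb in control 2. Since the regions were chosen as absent from the controls, the lower control counts in these spans are partly built in.

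The window with most far siORCA-only regions was on chromosome 7 from 38 to 39 Mb, with 20, which includes the group of 7. It held 115 peaks of siORCA 1, 67 of siORCA 2, 42 of control 1 and 62 of control 2. On chromosome 14 from 53 to 54 Mb there were 18 regions, with 113 and 83 siORCA peaks, against 43 and 45 control peaks. Peaks covered 24.9 and 19.5 kb there in siORCA 1 and siORCA 2, against 9.41 and 9.37 kb in control 1 and control 2. That window held 0 far control-only regions, which was so in 958 of 3023 windows. Windows were picked by their number of far siORCA-only regions, so lower control values in them are partly built in. The next windows were on chromosome 5 from 32 to 33 Mb with 15, and on chromosome 3 from 121 to 122 Mb, chromosome 6 from 4 to 5 Mb and chromosome 10 from 28 to 29 Mb with 14 each. In those 4 windows siORCA 2 covered less than control 2, with 24.2, 13.7, 13.02 and 13.8 kb in siORCA 2 against 25.3, 19.4, 20.03 and 15.6 kb in control 2, in the order named. Control 1 covered 17.4, 9.95, 15.5 and 11.7 kb, less than siORCA 2 except on chromosome 6. siORCA 1 covered 31.7, 19.98, 28.4 and 20.3 kb, more than either control in each window. A stretch on chromosome 10 from 43 to 46 Mb was named outside the rule for named regions. There siORCA 1 and siORCA 2 covered 225 and 220.1 kb, against 112 and 115 kb in control 1 and control 2. That stretch held 109 siORCA-only regions among 172 constant ones, and only 15 of them were far.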

How the data were processed

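The submitters' processing notes name MACS2, BWA and SAMtools and the build T2T-CHM13; the tools' versions and settings were not found here. The authors deposited 1 list of broad peaks per sample, so replicates were not pooled. Each deposited peak has a start and end, a score, its −log10 q and −log10 p, and a fold enrichment, which is a linear ratio, per the file layout. Depth is unknown, so no floor could be set.

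Regions were built and measured with scipy 1.17.1, pandas 2.3.3 and numpy 2.4.6 under Python 3.11.15, and drawn with matplotlib 3.10.9. Distances are gaps between edges. The span of a chromosome ends at its last peak. The rule was tested on simulated data and found each planted region. Members, and the rule for named regions, were chosen with earlier results of these data known. The stretch on chromosome 10 from 43 to 46 Mb was named outside that rule. Named regions were the 3 widest, the 3 highest by the lower siORCA fold, the 3 farthest, the 3 largest groups, the 5 fullest windows (with 1 more tied with the last) and the 2 on each side of the threshold. No test was run, because the siORCA and control contrast chose the regions and 2 against 2 samples cannot reach a low exact p. Gene annotation and sequence of this build were not used here. Alternatives were a stricter q, lists cut to 1 covered length, merging gaps, a 50% coverage minimum, other distances, other constant regions, each sample left out and no chromosome X.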

Additional observations from a re-analysis of the deposited data

How the results depend on the processing

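Of 12 alternatives, the number of far siORCA-only regions, 10682, stayed within 1.5 times in all except these. It was 18595 when a list counted as present only if it covered 50% of the region, 6026 at 50 kb, and 5629 when regions in at least 3 lists counted as constant. It was also 24780 without siORCA 1 and 79231 without siORCA 2. Without control 1 it was 13311 and without control 2 it was 13011, both within 1.5 times. The share that was far, 36.7%, was 50.4% at a −log10 q of at least 3, 41.7% with lists at the same covered length, 42.3% merged across 1 kb, 64.1% with 50% coverage, 51.0% at 10 kb, 20.7% at 50 kb and 19.3% with constant regions in at least 3 lists. Leaving out 1 sample gave 25.2% to 44.8%. It was the lowest of the 6 pairs in each of 8 settings that keep all samples except 50% coverage, where the lowest other pair had 64.0%. The median width, 227 bp, was 260, 267, 240, 233, 218 and 218 bp under the stricter q, 1 kb merging, 50% coverage, 10 kb, 50 kb and constant regions in at least 3 lists. Leaving out 1 sample gave 133 to 242 bp. The mean of the siORCA lists' median folds, 4.35, was 5.31 with the stricter q and 5.01 with lists of equal length. Both settings remove the weakest peaks, so a rise is partly built in. Leaving out 1 sample gave 3.81 to 4.51, where 3.81 without siORCA 1 and 4.07 without siORCA 2 are medians of a single list. Folds of different lists are not on 1 scale, so this mean serves only to compare settings. The share with another within 100 kb, 64.5%, was 70.6%, 52.4%, 57.4%, 79.6%, 72.9%, 56.0% and 45.5% under the stricter q, equal list length, 1 kb merging, 50% coverage, 10 kb, 50 kb and constant regions in at least 3 lists, and 70.9% to 98.9% leaving out 1 sample. Without chromosome X no value moved beyond its error. No paired analysis was possible because no result comes from a test. Unknown depth limits all counts.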

Other observations

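Only 1 far siORCA-only region had no control peak within 100 kb. It lay on chromosome 7 from 61788407 to 61788535, 527 kb from the nearest control peak, with 3.84-fold in siORCA 1 and 4.52-fold in siORCA 2.

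The longest group of far regions in any pair belonged to siORCA 1 with control 2. It held 54 regions over 283 kb on chromosome 14 from 264863 to 548162, a stretch with 141 peaks of siORCA 1, 1 of siORCA 2, 6 of control 1 and 86 of control 2. It held 0 far siORCA-only regions. Without it that pair had 10225 far regions. Both observations were chosen after their values were seen.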
